A study of Macaca mulatta with 7 samples.

Results

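Axon guidance ligands and receptors were followed by gene symbol through the nuclei of the rhesus monkey spinal cord. The set held every symbol that begins with SEMA and a digit, PLXN, EPHA, EPHB, EFNA, EFNB, SLIT1 to SLIT3, ROBO and a digit, UNC5, NTN and a digit or NRP and a digit, together with DCC. This gave 70 of the 28966 symbols in the feature lists, namely 20 semaphorins, 9 plexins, 2 neuropilins, 7 ephrins, 14 Eph receptors, 3 Slits, 4 Robo receptors, 4 netrins, 5 receptors of the UNC5 and DCC family, and UNC50 and UNC5CL, which share only the prefix and are not netrin receptors.

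The study profiled nuclei of spinal cord from adult female rhesus monkeys (Macaca mulatta) to ask how cells far below a complete thoracic injury respond. Cervical, thoracic and lumbar cord came from a single uninjured, untreated animal of age 5 years. Lumbar cord below the lesion was taken at 7 and 14 days post-injury (dpi; age 7 years) and at 30 dpi and 6 months post-injury (mpi; age 6 years), after a block of thoracic cord had been removed, from 1 animal per time point. Each group was thus 1 library, so that no test between groups was possible, and time after injury, animal, age and nuclei preparation cannot be told apart.

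Guidance cues were first described as signals that steer growing axons. Most secreted class 3 semaphorins act through a neuropilin co-receptor and an A-type plexin, whereas membrane semaphorins of classes 4 to 7 bind plexins directly. Slits signal through Robo receptors, netrins through DCC and UNC5 proteins, and ephrins through Eph receptors on the touching cell, with signalling in both directions. In the adult cord these genes are also used by glia and immune cells, for example in the migration of oligodendrocyte precursor cells (OPCs), the spacing of astrocytes and the contacts of phagocytes.

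The 7 libraries held 6134 to 12015 barcodes, and 63726 nuclei remained after filters on genes, UMIs and mitochondrial and hemoglobin reads and after removal of likely doublets. A UMI is a molecular tag that counts 1 captured RNA molecule. The median UMI count per nucleus was 3179 at 6 mpi, the lowest of the 7, and 4831 to 7320 in the others. Pairs of libraries shared 12 to 36 barcodes. Clustering without the set members gave 60498 nuclei in the 5 main classes, which are called oligodendrocyte-, OPC-, astrocyte-, microglia- and neuron-like after markers chosen for each. Astrocyte-like nuclei numbered only 93 at 7 dpi. UMIs were summed per class and library and divided by the class total of that library, in the unit CPM (counts-per-million). CPM is a share of the RNA of a class, not UMIs per nucleus. In intact lumbar cord the median UMI count per nucleus was 26755 in neuron-like and 5715 in oligodendrocyte-like nuclei. It was 5899 in OPC-like, 7028.5 in astrocyte-like and 3240 in microglia-like nuclei. Percentages of markers read in another class are medians over those markers unless stated. In nuclei, fewer transcripts per nucleus and a different mix of nuclei within a class cannot be told apart. Intervals are exact 95% Poisson intervals for levels, or conditional binomial intervals for ratios, and cover counting error only, not differences between animals.

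Most members kept to 1 leading class, the highest of the 5 main classes. Among the 70 members, 44 had their highest level in the same class in all 7 libraries (34.4% of all genes with a UMI did), 26 of them in neuron-like, 6 in oligodendrocyte-like, 5 in OPC-like, 4 in astrocyte-like and 3 in microglia-like nuclei. A member was called enriched where its level was at least 2-fold that of every other main class in every library. The rule needed a mean of at least 10 CPM over the 5 main classes and 7 libraries, which 47 members had. Of these 47, 34 were led by 1 class in all 7 libraries, against 58.5% of all genes at that level. In neuron-like nuclei 12 of these 47 members were enriched, against 3.73% of all 9864 genes judged by the same rule. Oligodendrocyte-like nuclei had 4 (background 2.97%), OPC-like nuclei 2 (1.39%), astrocyte-like nuclei 2 (2.95%) and microglia-like nuclei 1 (6.95%). With equal weight for each nucleus 9 remained enriched in neuron-like nuclei, as ROBO1 and SLIT2 fell to 1.75 and 1.80-fold in their lowest library and EPHA3 missed the minimum level. EPHB1 fell to 1.73-fold when members were among the variable genes. The classes were built from other genes, and no test was made.

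**Figure D1:**
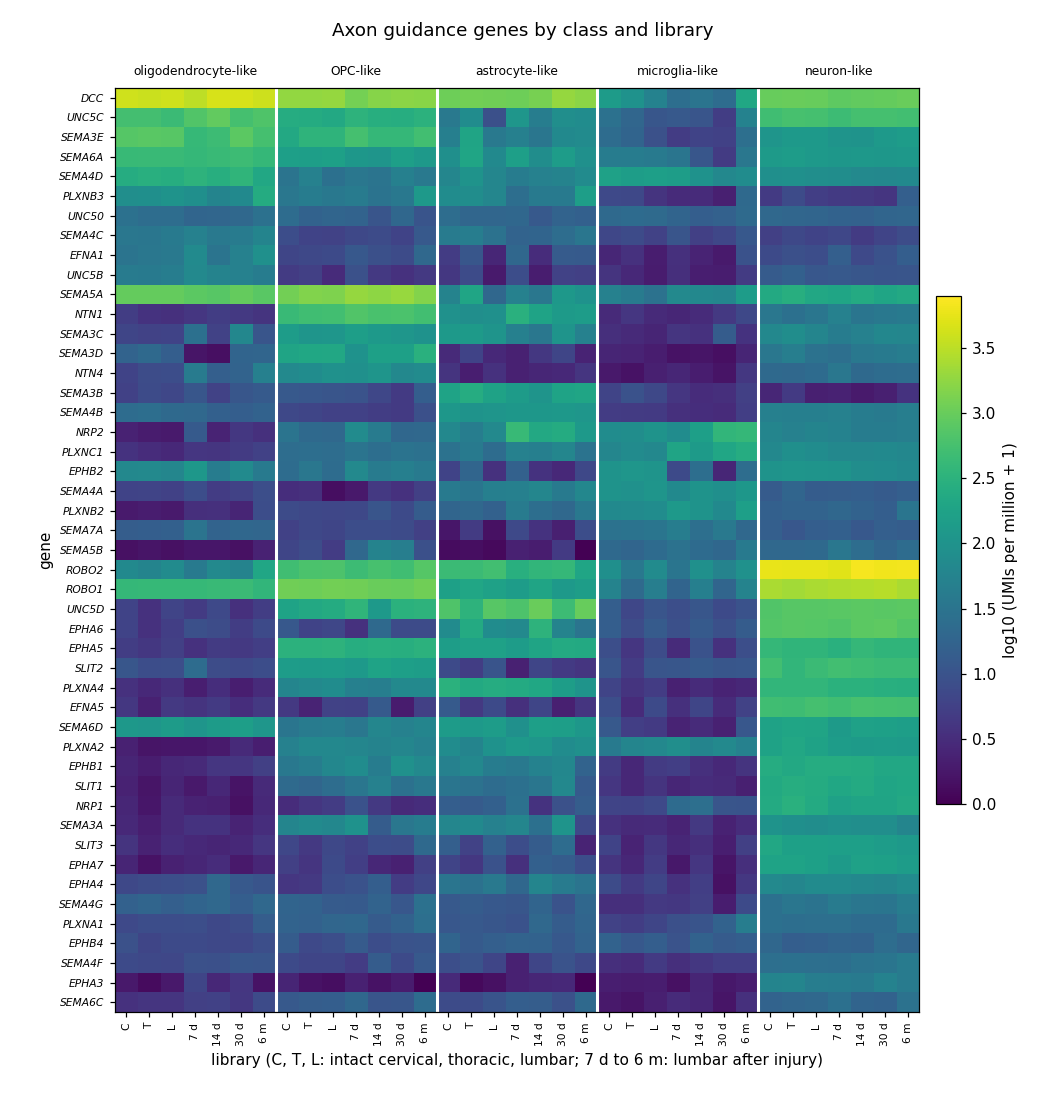
Level of the 47 members with a mean of at least 10 CPM (rows) in each library (columns) of the 5 main classes, coloured as log10 of CPM plus 1. Rows are grouped by leading class, and the blocks of high level sit in the same class in intact and injured libraries for most genes, with DCC highest in oligodendrocyte-like and ROBO2 in neuron-like nuclei.

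Neuron-like nuclei carried all 3 Slits and 2 of their receptors. SLIT2, a secreted ligand of Robo receptors, measured 519.9, 365 and 449 CPM in intact cervical, thoracic and lumbar cord and 519, 492, 454 and 447 at 7, 14 and 30 dpi and 6 mpi, and in OPC-like nuclei it measured 127 to 180.5. SLIT1 measured 198 to 272 and SLIT3 128 to 220.1 in neuron-like nuclei over the 7 libraries. ROBO1, which is also high in OPC-like nuclei (974 to 1169.6), measured 2297 to 3041 in neuron-like nuclei. ROBO2 measured 5376 to 7121 there and no more than 744 in any other main class. ROBO3, the divergent family member, led in astrocyte-like nuclei in all 7 libraries at 18.5 to 39.9. Its mean over the main classes and libraries, 7.30, was below that needed for the enrichment rule.

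The enrichment rule could be applied to 2 of 7 ephrins and 8 of 14 Eph receptors, and 1 ephrin and 4 receptors met it in neuron-like nuclei (3.73% of all genes judged did). EFNA5, a membrane-anchored ligand of EphA receptors, measured 513, 480.0 and 556 CPM in intact cervical, thoracic and lumbar cord and 514, 591, 566 and 540.2 at 7, 14 and 30 dpi and 6 mpi in neuron-like nuclei, at least 43.5-fold the level of the next class in every library. The receptors EPHA3 (38.8 to 58.7), EPHA6 (684 to 851), EPHA7 (132 to 184) and EPHB1 (218 to 260.4) were enriched in neuron-like nuclei too. EPHA4, a receptor that accepts ligands of both ephrin classes, measured 60.6 to 75.1 in neuron-like and 18.7 to 57.6 in astrocyte-like nuclei and did not meet the rule. EFNB3, the transmembrane ligand known from the spinal midline, measured 7.95 to 13.4 in neuron-like nuclei. The semaphorin co-receptor NRP1 (169.9 to 296) and the membrane semaphorin SEMA4F (24.6 to 41.2) completed the neuronal group.

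As a share of the class total, the netrin receptor DCC was highest in oligodendrocyte-like nuclei. It measured 4143, 3871 and 4106 CPM in intact cervical, thoracic and lumbar cord and 3253, 4626, 4602 and 4041 at 7, 14 and 30 dpi and 6 mpi. DCC was 2.11 to 2.95-fold above the next class in every library, and OPC-like nuclei followed with 1222 to 1896. Without doublet removal the lowest of these ratios was 1.97, and DCC was no longer called enriched. A second dependence receptor for netrin, UNC5B, was enriched in oligodendrocyte-like nuclei at a lower level (38.1 to 66.9), whereas UNC5C was shared between oligodendrocyte-like (453 to 909) and neuron-like nuclei (472 to 574). The transmembrane semaphorin SEMA6A, a plexin-A ligand, measured 389 to 465, and the ligand EFNA1 measured 30.4, 34.4 and 37.1 in the intact segments and 71.3, 31.2, 51.4 and 89.7 after injury. SEMA4D, a membrane semaphorin of myelinating cells and lymphocytes, led in oligodendrocyte-like nuclei in all 7 libraries (216 to 353), at least 1.52-fold above the next class.

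RNA of the netrin ligand NTN1 was highest in another class than that of its receptor DCC. NTN1 was enriched in OPC-like nuclei with 441, 508 and 520.5 CPM in intact cervical, thoracic and lumbar cord and 692, 612, 617 and 522 at 7, 14 and 30 dpi and 6 mpi, 2.34 to 5.98-fold above the next class, and measured 2.48 to 4.12 in oligodendrocyte-like nuclei. The secreted semaphorin SEMA3D was enriched in the same class (95.2 to 299.8). SEMA5A, a semaphorin with thrombospondin repeats, led in OPC-like nuclei in all 7 libraries (1183 to 1964) ahead of oligodendrocyte-like nuclei (762 to 963). NTN4, a laminin-related netrin, was also led by OPC-like nuclei (65.5 to 108).

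Astrocyte-like nuclei were marked by SEMA3B (179, 257 and 176 in the intact segments and 137, 104, 180.3 and 194 after injury), at least 13.5-fold the next class, and SEMA4B (101 to 118). Microglia-like nuclei were marked by PLXNB2 alone among the members, a plexin that binds class 4 semaphorins, with 71.1, 73.7 and 76.9 in the intact segments and 128, 99.8, 68.8 and 159 after injury. SEMA4A (69.5 to 115) and SEMA7A (19.8 to 44.2), a GPI-anchored semaphorin known from immune cells, were also highest in microglia-like nuclei in all 7 libraries, SEMA7A by as little as 1.08-fold. PLXNB1, the receptor of SEMA4D, was at 13.7 to 32.5 in astrocyte-like nuclei, its leading class, and at 0.0793 to 0.977 in microglia-like nuclei.

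After injury 5 members were called, 4 of them in microglia-like and 1 in OPC-like nuclei. A gene was called where all 4 injured lumbar libraries were at least 2-fold from intact lumbar in 1 direction and outside the range of the 3 intact segments. Genes with fewer than 10 expected UMIs in the smallest library of a class were not judged, which left 31 to 64 members per class. In microglia-like nuclei 3 of 51 members were called higher (PLXNC1, PLXND1 and SEMA5A), against 2.56% of all genes, and 1 was called lower (EPHB2), against 1.45%. In OPC-like nuclei 1 of 31 was called higher (SEMA5B; background 0.355%) and 0 lower (0.171%). SEMA5B passed the filter on counts only through the injured libraries, since its intact level alone gave 4.79 expected UMIs in the smallest library, so that its count supports nothing about the members. The same limit holds for the later OPC-like counts that include SEMA5B, those above the intact range and at 1.5-fold. None was called higher or lower among 50 members in oligodendrocyte-like nuclei (1.45% and 0.63%), 31 in astrocyte-like nuclei (1.05% and 0.221%) and 64 in neuron-like nuclei (0.843% and 0.308%). Within 2-fold of intact lumbar at all 4 times were 59 of 64 members in neuron-like nuclei (81.7% of all genes), 27 of 50 in oligodendrocyte-like (74.9%), 23 of 31 in OPC-like (84.3%), 14 of 31 in astrocyte-like (71.7%) and 14 of 51 in microglia-like nuclei (62.4%). The members' share was above that of all genes in neuron-like nuclei and below it in the 4 glial classes. All genes were not matched to the members for level. Members that differed at least 2-fold between intact segments were 17 of 51 in microglia-like nuclei (10% of all genes) and 0 of 31 in OPC-like nuclei (1.41%). Above the range of the intact segments in all 4 injured libraries were 8 of 31 members in OPC-like nuclei (8.96% of all genes), 11 of 50 in oligodendrocyte-like (14.3%), 3 of 31 in astrocyte-like (10%), 7 of 51 in microglia-like (14%) and 1 of 64 in neuron-like nuclei (9.75%). Below it were 1 (8.38%), 1 (10.5%), 2 (7.32%), 6 (11.8%) and 9 (10.8%) in the same order. At 1.5-fold, 4 of 50 members were called higher in oligodendrocyte-like nuclei (3.35% of all genes), 2 of 31 in OPC-like (1.22%), 1 of 31 in astrocyte-like (2.84%) and 5 of 51 in microglia-like nuclei (5.17%), and 2 of 51 were called lower in microglia-like nuclei (3.13%). The median log2 ratio of the judged members was -0.30, -0.10, -0.58 and 0.29 at 7, 14 and 30 dpi and 6 mpi in microglia-like nuclei, beside 0.04, -0.10, -0.08 and 0.22 over all judged genes. In neuron-like nuclei it was -0.03, -0.11, -0.12 and 0.03, beside 0.05, -0.04, -0.01 and 0.07. Scaling by the median of ratios moved the log2 ratios at 6 mpi by -0.13 in microglia-like and -0.12 in astrocyte-like nuclei, and by less than 0.1 in every other class and library.

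**Figure D2:**
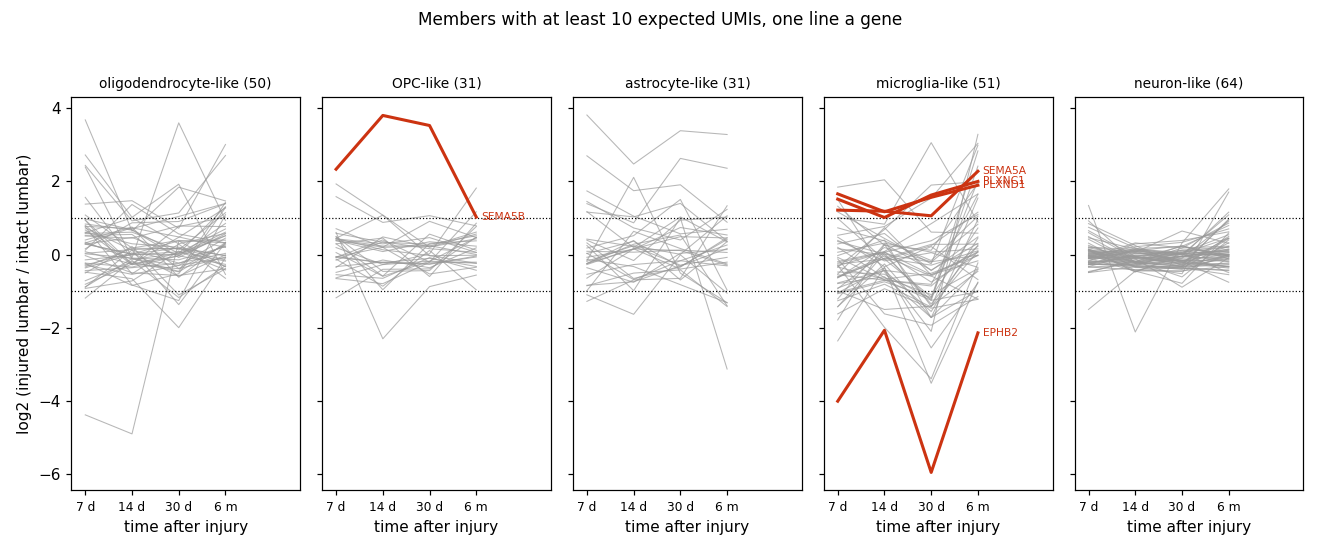
log2 ratio of injured to intact lumbar cord (y axis) at the 4 times after injury (x axis) for every member with at least 10 expected UMIs, 1 line per gene and 1 panel per class, with dotted lines at 2-fold and the 5 called genes in red. EPHB2 lies far below the other microglia-like lines, reaching -5.94 at 30 dpi, while 59 of 64 neuron-like lines stay within 2-fold.

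EPHB2 had the largest called change. This receptor of transmembrane ephrins is known from synapses and cell sorting. Its CPM in intact microglia-like nuclei was close to that in neuron-like nuclei, which held more UMIs per nucleus. In microglia-like nuclei EPHB2 measured 100.1, 109 and 103 CPM in intact cervical, thoracic and lumbar cord and 6.41, 24.5, 1.67 and 23.3 at 7, 14 and 30 dpi and 6 mpi. The 3 intact segments were close to each other, and every injured library was below them without overlap. The log2 ratio to intact lumbar was -4.00 (interval -4.32 to -3.70) at 7 dpi, -2.06 (interval -2.23 to -1.90) at 14 dpi, -5.94 (interval -6.43 to -5.50) at 30 dpi and -2.14 (interval -2.40 to -1.88) at 6 mpi. After injury the microglia-like level was 5.54, 58.5, 2.27 and 60.6% of the oligodendrocyte-like one at 7, 14 and 30 dpi and 6 mpi. The oligodendrocyte markers stood at a median of 2.61, 2.14, 1.88 and 5.99%, and the highest of them at 12.2, 10.8, 11.6 and 15.5%. EPHB2 was close to the median at 30 dpi and below the highest marker at 7 and 30 dpi. The part of carried-over RNA in those ratios was not tested. Without doublet removal the fall was smaller, at -2.90 at 7 dpi and -3.68 at 30 dpi, and EPHB2 was still called lower. After thinning every nucleus to 1000 UMIs, the share of microglia-like nuclei with an EPHB2 UMI was 9.0, 10.1 and 9.55% in the intact libraries and 0.897, 2.43, 0.234 and 1.98% after injury, compared with 30.2, 32.3 and 25.1% and 2.34, 8.29, 0.778 and 5.28% before thinning. Astrocyte-like nuclei, in which EPHB2 was low, gave 0.514% in intact lumbar cord on the thinned scale. In neuron-like nuclei EPHB2 measured 99.0, 106 and 102 in the intact segments and 98.9, 81.2, 79.1 and 69.6 after injury, and in oligodendrocyte-like nuclei 64.2, 67.3 and 60.3 in the intact segments and 116, 42.0, 73.5 and 38.6 after injury, at log2 ratios of -0.04, -0.32, -0.36 and -0.55 in neuron-like and 0.94, -0.52, 0.29 and -0.64 in oligodendrocyte-like nuclei.

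EPHB2 lies on chromosome 1 at chr1:201855356-202069022 of Mmul_10, the build of the files, on the minus strand. The complement genes C1QB, C1QC and C1QA, which microglia express, are its neighbours upstream on the same strand, the nearest being C1QB, which ends 48764 bases before EPHB2 starts and starts 57055 bases before it. In microglia-like nuclei C1QA had CPM of 96.2, 81.5 and 137 in the intact segments and 87.9, 84.4, 37.8 and 72.8 after injury. C1QB had 78.9, 63.8 and 112 in the intact segments and 77.0, 53.5, 36.9 and 54.5 after injury. C1QC had 57.4, 47.6 and 76.3 in the intact segments and 69.9, 45.1, 28.8 and 55.6 after injury. At 30 dpi, where EPHB2 was lowest (1.67), all 3 neighbours were below every intact segment. At 7 dpi all 3 lay within the intact range, at 14 dpi C1QB and C1QC lay below it and at 6 mpi C1QA and C1QB did.

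The genes called higher in microglia-like nuclei were a pair of plexins and a semaphorin. PLXNC1, the receptor of SEMA7A, measured 61.1, 74.7 and 65.1 CPM in intact cervical, thoracic and lumbar cord and 186, 131, 201 and 260.2 at 7, 14 and 30 dpi and 6 mpi. All 4 injured libraries exceeded the 3 intact ones, differing from intact lumbar on the log2 scale by 1.51 (interval 1.37 to 1.66) at 7 dpi, 1.01 (interval 0.87 to 1.16) at 14 dpi, 1.63 (interval 1.49 to 1.76) at 30 dpi and 2.0 (interval 1.85 to 2.15) at 6 mpi. PLXND1, a receptor of SEMA3E known from vessels, was much lower, at 5.96, 6.93 and 7.19 in the intact segments and 22.7, 16.2, 21.3 and 26.7 after injury, at log2 ratios of 1.66, 1.17, 1.56 and 1.89. Of 6 endothelial markers read in the same nuclei, FLT1 measured 15.7, 25.2 and 15.1 in the intact segments and 77.1, 43.9, 83.7 and 21.2 after injury, and PECAM1 measured 16.3 to 17.7 and 44.7 to 56.9. VWF measured 762 to 805 in intact and 698 to 1385 in injured cord, and CLDN5, EMCN and CDH5 were at or under 0.814 in every library. Their summed level was 796 to 848 in intact and 828 to 1518 in injured cord, and its part in the PLXND1 call was not tested. SEMA5A measured 50.7, 41.4 and 28.9 in the intact segments and 67.1, 65.7, 60.3 and 139.9 after injury, differing from intact lumbar on the log2 scale by 1.21 (interval 1.00 to 1.43) at 7 dpi, 1.18 (interval 0.97 to 1.40) at 14 dpi, 1.06 (interval 0.85 to 1.27) at 30 dpi and 2.28 (interval 2.06 to 2.50) at 6 mpi. The 6 mpi library was the highest for all 3 genes. The calls of PLXNC1 and SEMA5A were lost when the mean of the 3 intact segments was the reference, that of PLXNC1 also in the purest nuclei, and all 3 were lost when each nucleus was weighted equally, where the lowest log2 ratio was 0.97 for PLXNC1 and PLXND1 and 0.88 for SEMA5A. PLXNC1 and SEMA5A each overlap 2 annotated genes on the opposite strand, and whether the counting used strand is not given in the sources used here.

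To show where the genes that moved in opposite directions start, the 250 bases before the annotated gene start are given 5′ to 3′ from Mmul_10, with CG pairs in capitals. The PLXNC1 sequence is chr11:93956122-93956371 on the plus strand and the EPHB2 sequence chr1:202069023-202069272 on the minus strand.
PLXNC1: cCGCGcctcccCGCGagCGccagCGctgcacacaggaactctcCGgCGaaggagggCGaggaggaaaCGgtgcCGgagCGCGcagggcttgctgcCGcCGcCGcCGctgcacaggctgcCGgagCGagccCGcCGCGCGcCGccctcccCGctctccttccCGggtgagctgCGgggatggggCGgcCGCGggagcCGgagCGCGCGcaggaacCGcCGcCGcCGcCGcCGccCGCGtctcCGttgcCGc
EPHB2: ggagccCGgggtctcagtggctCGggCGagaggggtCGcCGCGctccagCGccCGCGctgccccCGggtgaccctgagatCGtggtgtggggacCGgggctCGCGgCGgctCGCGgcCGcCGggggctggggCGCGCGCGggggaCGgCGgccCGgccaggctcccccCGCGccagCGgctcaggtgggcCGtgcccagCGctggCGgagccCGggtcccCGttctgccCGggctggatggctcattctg
The PLXNC1 region held 44 CG pairs and the EPHB2 region 35, compared with a median of 12 over 21107 protein-coding genes. Searched on both strands, the letters GAGGAAGT, a core bound by the myeloid factor PU.1, occurred in neither region and in 1.79% of all regions, and TGANTCA, the AP-1 site, occurred in neither and in 5.15% of all.

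SEMA5A needs its background beside it, since oligodendrocyte lineage nuclei hold far more of it. The microglia-like level was 5.39, 4.35 and 3.0% in the intact segments and 8.17, 8.62, 6.39 and 17.5% after injury of the oligodendrocyte-like level in the same library, while the markers of oligodendrocytes stood at a median of 6.00, 4.20 and 2.64% and 2.61, 2.14, 1.88 and 5.99% of theirs in the same order. Read against OPC-like nuclei, where SEMA5A is also high, its share of their level was 4.29, 2.88 and 2.03% in the intact segments and 3.49, 3.77, 3.07 and 9.43% after injury, beside 0.517, 0.418 and 0.261% and 0.287, 0.226, 0.175 and 0.531% for the OPC markers. SEMA5A stood above the median OPC marker in all 7 libraries and above the median oligodendrocyte marker in all 4 injured ones. The highest OPC marker was at 20.9 to 26.8% over the 7 libraries, above SEMA5A in each. The highest oligodendrocyte marker was at 12.2, 10.8, 11.6 and 15.5% after injury, above SEMA5A except at 6 mpi. The part of carried-over RNA in these levels was not tested. For PLXNC1 no other main class reached the microglia-like level after injury.

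Different clusters made up the microglia-like class in intact and injured cord. Libraries were clustered together without integration, so that differences between these clusters and between libraries cannot be told apart. Clusters led by MRC1, FKBP5 and CX3CR1 (c2) and by NR4A3 and IL1B (c25) held most intact microglia-like nuclei (84.3% to 93.5% in c2 and 5.14% to 14.3% in c25), whereas 7 dpi was mostly c8, led by SLC11A1 and CD74 (77.4%), 14 and 30 dpi mostly c0, led by SRGN and CD83 (87.9% and 62.8%), and 6 mpi was divided between c16, led by GPNMB and CHIT1 (48.5%), and c17, with LILRB1 and PLCB2 among its leading genes (35.7%). Cluster c12 held 7.29% of the microglia-like nuclei at 14 dpi and 33.3% at 30 dpi. EPHB2 measured 106 in c2 and 93.1 in c25, and 6.01, 16.1, 2.77 and 5.16 in c8, c0, c12 and c16. It was higher, at 39.3, in c17 and measured 12.5 in c23, a cluster led by TOP2A that held 14.3% of 7 dpi nuclei. PLXNC1 measured 65.4 in c2, 70 in c25, 118 in c0, 129 in c17, 171 in c8, 193 in c23, and 315 and 405 in the clusters c12 and c16, both with GPNMB among their leading genes.

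NRP2, a neuropilin that binds class 3 semaphorins and is known from phagocytes and lymphatic vessels, was not called, since it lay within the intact range at 7 dpi and missed 2-fold at 14 dpi. In microglia-like nuclei NRP2 measured 77.8, 80.5 and 99.7 CPM in intact cervical, thoracic and lumbar cord and 78.7, 161, 372 and 396 at 7, 14 and 30 dpi and 6 mpi, at log2 ratios of -0.34, 0.69, 1.90 and 1.99. In c12 and c16 NRP2 was at 652 and 681, compared with 80.1 in c2, 76.0 in c8 and 136 in c0. SEMA4D measured 172, 149 and 157 in the intact segments and 149, 97.2, 66.1 and 77.6 after injury in microglia-like nuclei, below all intact segments in every injured library, and at log2 ratios of -0.07, -0.69, -1.25 and -1.01 it did not meet the 2-fold rule. In these nuclei the 7 dpi level of SEMA4D and that of intact thoracic cord were the same to the digits shown (149). SEMA7A, the ligand of PLXNC1, measured 28.7, 29.5 and 31.8 in the intact segments and 44.2, 25.3, 37.0 and 19.8 after injury in the same nuclei, so that its injured libraries spanned both sides of the intact range.

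**Figure D3:**
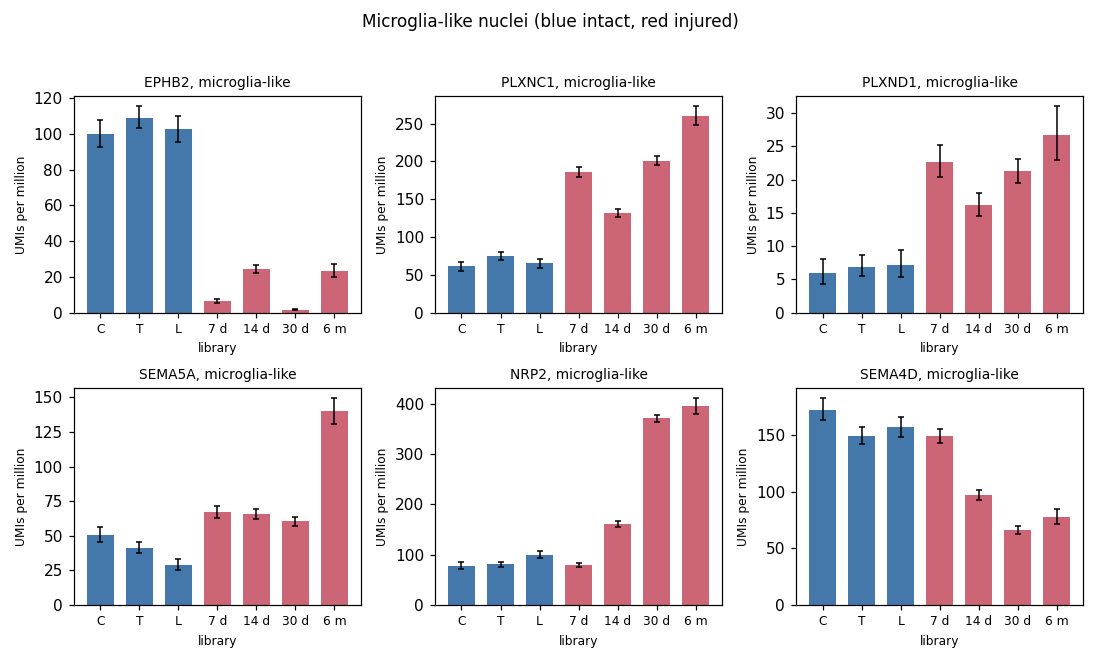
Level in CPM (y axis, bars from 0) of 6 members in microglia-like nuclei of the 7 libraries (x axis; C, T and L are intact cervical, thoracic and lumbar cord, the others lumbar cord at days or months after injury), with exact 95% Poisson intervals as error bars. EPHB2 falls below all intact bars in the 4 injured libraries, PLXNC1, PLXND1 and SEMA5A rise above them, and NRP2 lies above them from 14 dpi on.

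In OPC-like nuclei SEMA5B, a transmembrane semaphorin, was the only member called. SEMA5B measured 5.48, 7.03 and 3.94 CPM in intact cervical, thoracic and lumbar cord and 19.8, 54.8, 45.3 and 8.01 at 7, 14 and 30 dpi and 6 mpi, from 29, 78, 19, 46, 95, 141 and 7 UMIs. The increase was large at 7, 14 and 30 dpi, whereas the 6 mpi value rested on 7 UMIs, with an interval that reached below no change (2.33 (interval 1.53 to 3.19) at 7 dpi, 3.80 (interval 3.08 to 4.59) at 14 dpi, 3.52 (interval 2.83 to 4.30) at 30 dpi and 1.03 (interval -0.47 to 2.34) at 6 mpi on the log2 scale). The call was lost under 6 of the alternatives. The 6 mpi log2 ratio was 0.84 both with equal weight for each nucleus and without doublet removal, 0.96 with median-of-ratios scaling, just under 1.00 with members among the variable genes and 0.55 against the mean of the intact segments. A minimum of 30 expected UMIs left SEMA5B unjudged. As a share of the neuron-like level SEMA5B stood at 27.3, 35.8 and 19.1% in the intact segments and 57.3, 234, 256 and 35.5% after injury. The median neuron marker stood at 14.7 to 20.3% over the 7 libraries and the highest at 43.6 to 100.9%. The part of carried-over RNA was not tested. EPHB2 went the other way than in microglia-like nuclei, with CPM of 23.1, 33.6 and 22.6 in the intact segments and 67.6, 41.5, 47.2 and 38.9 after injury and log2 ratios of 1.58, 0.88, 1.06 and 0.79, all above the intact range but short of 2-fold at 14 dpi and 6 mpi. Neuron-like nuclei had EPHB2 at 99.0, 106 and 102 in the intact segments and 98.9, 81.2, 79.1 and 69.6 after injury. The highest neuron marker read in OPC-like nuclei stood at 77.1, 54.6, 43.6 and 100.9% of its neuron-like level after injury. The part of carried-over RNA in the OPC-like EPHB2 levels was not tested. A second OPC-like cluster with BRCA2, EZH2 and UHRF1, genes of DNA replication and chromatin, among its leading genes made up 18.4% of the class at 7 dpi and 0.299% to 3.07% in the other libraries. In that cluster SEMA5B measured 63.9 and EPHB2 72.2, compared with 12.3 and 33.2 in the main OPC-like cluster, and its part in the 7 dpi values was not tested. SEMA5A (1183, 1437 and 1423 in the intact segments and 1919.6, 1744, 1964 and 1483 after injury) and NTN1 (441, 508 and 520.5 in the intact segments and 692, 612, 617 and 522 after injury) were above all intact segments after injury in OPC-like nuclei, by less than 2-fold. SEMA3C, a secreted semaphorin, measured 95 to 152 over the 7 libraries.

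In astrocyte-like nuclei no member passed, and NRP2 came nearest. NRP2 measured 65.7, 44.0 and 66.4 CPM in intact cervical, thoracic and lumbar cord and 431, 223, 249 and 123 at 7, 14 and 30 dpi and 6 mpi, with all 4 injured libraries above the intact range and log2 ratios of 2.70 (interval 2.50 to 2.90) at 7 dpi, 1.74 (interval 1.55 to 1.93) at 14 dpi, 1.91 (interval 1.72 to 2.10) at 30 dpi and 0.88 (interval 0.53 to 1.22) at 6 mpi. The 6 mpi value kept it from being called, and it was called when that library was left out, an alternative added after the data had been seen. NTN1 in astrocyte-like nuclei lay above the intact range in all 4 libraries as well (93.3, 85.0 and 88.7 in the intact segments and 296, 184, 131 and 143 after injury), reaching 2-fold at 7 and 14 dpi. Markers of microglia stood at 0.332, 0.832 and 0.221% and 4.32, 3.77, 1.89 and 2.43% of their own level in astrocyte-like nuclei of the intact segments and the injured libraries, while NRP2 in astrocyte-like nuclei was 84.4, 54.7 and 66.6% in the intact segments and 547, 139, 67.0 and 31.0% after injury of its microglia-like level. The astrocyte-like class was made of clusters c9 and c15, and c15 held 16.8% to 46.8% of it in the intact segments and 29.0% to 69.4% after injury. NRP2 measured 68.0 in c9 and 101 in c15, and NTN1 88.3 and 120.4. SEMA3C was below the intact range in all 4 injured libraries (124, 132 and 104 in the intact segments and 48.7, 33.7, 104 and 50.3 after injury), at log2 ratios of -1.10, -1.63, -0.01 and -1.05 and thus almost no difference from intact lumbar at 30 dpi. PLXNA4, a plexin that partners neuropilins, measured 308, 235 and 261 in the intact segments and 238, 208, 148 and 105 after injury.

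**Figure D4:**
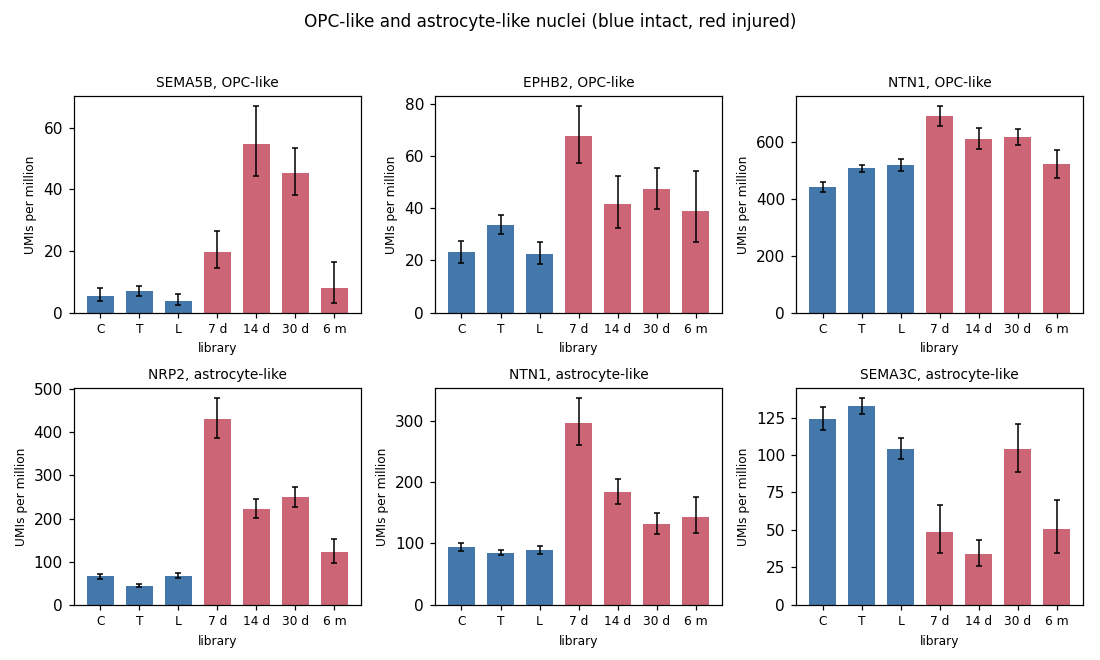
Level in CPM (y axis, bars from 0) of 3 members in OPC-like and 3 in astrocyte-like nuclei of the 7 libraries (x axis; C, T and L are intact segments, the others lumbar cord after injury), with exact 95% Poisson intervals as error bars. SEMA5B is highest at 14 and 30 dpi, and NRP2 in astrocyte-like nuclei is highest at 7 dpi.

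Oligodendrocyte-like nuclei had no called member, yet several differed from intact cord in some of the libraries. NTN4 measured 5.14, 7.10 and 7.45 CPM in intact cervical, thoracic and lumbar cord and 40.3, 14.1, 16.4 and 48.6 at 7, 14 and 30 dpi and 6 mpi, all injured libraries above the intact range, with a log2 ratio of 0.92 at 14 dpi that missed 2-fold. SEMA3C was highest at 7 and 30 dpi (5.51, 4.98 and 5.12 in the intact segments and 26.8, 4.83, 62.0 and 9.78 after injury). SEMA3D was nearly lost at 7 and 14 dpi, with 14 and 7 UMIs, and not at 30 dpi or 6 mpi (16.2, 20.8 and 13.4 in the intact segments and 0.646, 0.451, 17.2 and 17.6 after injury). These genes did not follow a single order of time, and each time point was another animal. PLXNB3, a plexin of the oligodendrocyte lineage, measured 82.2, 87.2 and 101 in the intact segments and 86.2, 56.6, 70.6 and 247 after injury in oligodendrocyte-like nuclei and was highest at 6 mpi in all 5 main classes, with 125 in OPC-like, 152 in astrocyte-like, 13.9 in neuron-like and 20.3 in microglia-like nuclei of that library, the one with the lowest depth.

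In neuron-like nuclei the few shifts that were shared by all injured libraries were small. PLXNA4 measured 369, 372 and 374 CPM in intact cervical, thoracic and lumbar cord and 309.6, 314, 289 and 279.6 at 7, 14 and 30 dpi and 6 mpi, below every intact segment after injury, at log2 ratios of -0.27, -0.25, -0.37 and -0.42. NRP1 likewise measured 238, 296 and 238 in the intact segments and 169.9, 189, 190.3 and 223 after injury. UNC5D was the 1 member above the intact range in all 4 injured libraries. SEMA3A, the best known repellent acting through NRP1, measured 101, 87.2 and 82.1 in the intact segments and 89.6, 83.8, 83.9 and 58.4 after injury, with the 6 mpi library below the intact range and the other injured libraries within it. DCC in neuron-like nuclei (979, 1006 and 989 in the intact segments and 855, 928, 945 and 1028 after injury) and UNC5C (498, 574 and 570.3 in the intact segments and 472, 566, 551 and 522 after injury) overlapped between intact and injured libraries.

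Neuron-like nuclei were divided into sub-clusters without use of the members or of transmitter genes. The sub-clusters with SLC17A6, the main vesicular glutamate transporter of the cord, and inhibitory-like sub-clusters with at least 3 of GAD1, GAD2, SLC6A5 and SLC32A1 were compared in each library. Other neuron-like nuclei remained unnamed, and no sub-cluster passed as cholinergic-like. The largest sub-clusters, of 1078 and 721 nuclei, were among the unnamed. In intact lumbar cord the SLC17A6 sub-clusters held 877 of 2786 neuron-like nuclei. The comparison thus leaves out a large part of the neuron-like nuclei. Unnamed sub-clusters of 472, 293 and 74 nuclei, with MBP, PTPRC and ALDH1A1 among their leading genes, had all 10 leading genes high in glial classes. They are part of the neuron-like levels given above. Without them 0 members were called higher and 0 lower after injury in neuron-like nuclei. Of 57 members with enough counts, 6 were at least 2-fold higher in the SLC17A6 sub-clusters in all 7 libraries (background 1.27%), namely EFNB3, EPHB1, SEMA3C, SEMA3D, SEMA5A and UNC5B. ROBO1 was the single member higher in the inhibitory-like sub-clusters by the same rule (1.3%). SEMA3C had the widest difference, with 137 to 191 CPM in the SLC17A6 and 3.76 to 22.6 in the inhibitory-like sub-clusters. ROBO1 measured 719.6 to 1163 and 3601 to 4772, and ROBO2, by contrast, was higher in the SLC17A6 sub-clusters in all 7 libraries (7325 to 10832 and 4579.5 to 6452). PLXNC1 was lower in the SLC17A6 sub-clusters in all 7 libraries, with 38.4 to 58.0 against 78.0 to 133.

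**Figure D5:**
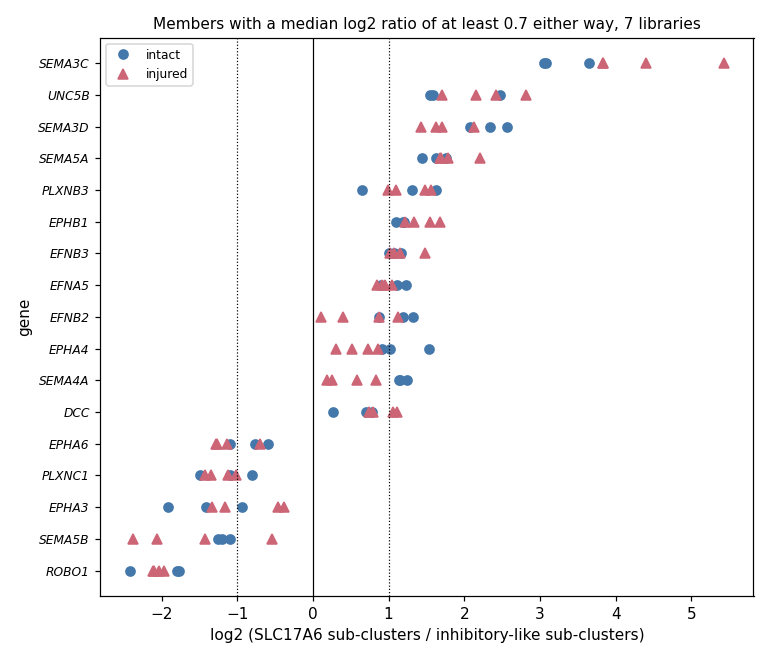
log2 ratio of the level in SLC17A6 sub-clusters to that in inhibitory-like sub-clusters (x axis) for members whose median ratio over 7 libraries was at least 0.7 in either direction (y axis), 1 point per library, blue circles for intact and red triangles for injured cord, with dotted lines at 2-fold. SEMA3C lies at 3.05 to 5.43 and ROBO1 at -2.42 to -1.77, without overlap of 0 in any library.

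Across the intact segments a member was counted where the highest of the 3 levels was at least 2-fold the lowest. This held for 3 of 64 members in neuron-like nuclei (5.11% of all genes), namely PLXNA3, PLXND1 and SEMA3B, all low there, and for 0 of 31 in OPC-like nuclei (1.41%). Oligodendrocyte-like nuclei had 7 of 50 (3.53%), all of them at or under 5.36 CPM in intact oligodendrocyte-like nuclei. Neuron-like nuclei led for UNC5D in 5 of 7 libraries and for the others in all 7. Astrocyte-like nuclei had 6 of 31 (8.19%) and microglia-like nuclei 17 of 51 (10%). Among the latter DCC measured 139, 97.0 and 51.7 in cervical, thoracic and lumbar cord, or 3.35, 2.51 and 1.26% of its oligodendrocyte-like level, in the same order as the oligodendrocyte markers (6.00, 4.20 and 2.64%). SEMA5A in astrocyte-like nuclei measured 53.9, 194 and 19.0, or 5.72, 20.4 and 1.98% of its oligodendrocyte-like level, beside oligodendrocyte markers at 4.43, 20.5 and 1.35%, and UNC5C and SEMA3E were likewise highest in thoracic cord among the intact segments. EPHA6 in astrocyte-like nuclei was also highest in thoracic cord (76.0, 245 and 77.0), and there the neuron markers stood at 3.25, 2.49 and 4.77% and EPHA6 at 10.7, 31.8 and 10.5% of the neuron-like level. At a minimum of 30 expected UMIs, chosen after seeing the data, the count was 1 of 34 in oligodendrocyte-like (UNC5D) and 10 of 29 in microglia-like nuclei. Fewer members were judged at this minimum, and no share of all genes is given for it. The part of carried-over RNA in these differences was not tested.

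Some well known pairs of ligand and receptor were led by the same class and others by different classes, and no count of pairs was made. Led means highest among the 5 main classes only. Smaller classes, given below, had higher levels of EPHA4, EFNB3, SEMA4D and NRP1. For NTN1, the highest ependymal-like level in the intact segments was also above every OPC-like level there. For SEMA3A, neuron-like nuclei led in 5 of 7 libraries. In intact lumbar cord SEMA3A measured 82.1 (95% interval 80.2 to 83.9) CPM in neuron-like and 62.3 (95% interval 55.5 to 69.8) in OPC-like nuclei. Among the main classes, its receptors NRP1 and PLXNA4 were highest in neuron-like nuclei. For SLIT2 both the ligand and the receptors ROBO1 and ROBO2 led in neuron-like nuclei. For NTN1 the ligand led in OPC-like nuclei, DCC in oligodendrocyte-like nuclei in all 7 libraries and UNC5C in oligodendrocyte-like nuclei in 5 of 7. For SEMA4D, among the main classes, the ligand led in oligodendrocyte-like and the receptor PLXNB1 in astrocyte-like nuclei. For EFNA5 and EPHA4 both partners led in neuron-like nuclei, while EFNB3 led in neuron-like nuclei and EPHB2 led in microglia-like nuclei in the 3 intact libraries, by at most 1.03-fold, in neuron-like nuclei in 3 injured libraries and in oligodendrocyte-like nuclei at 7 dpi. A level of RNA in separate nuclei says nothing of contact or binding.

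Smaller classes held further members. In a vascular cluster with both endothelial and pericyte markers (41 to 53 nuclei in each intact library) ROBO4, the endothelial Robo receptor, measured 71.4 to 117, NRP1 355 to 462, EPHA4 208 to 284 and SEMA6A 395 to 532 over the intact segments. Ependymal-like nuclei had NTN1 at 385 to 563, EFNB3 at 48.0 to 98.5 and SLIT2 at 75.7 to 137. T cell-like nuclei had SEMA4D at 451 to 762 in the intact and 503 to 814 in the injured libraries. The injured libraries held 6 to 16 nuclei of the vascular cluster and 7 to 47 ependymal-like nuclei, too few for the call rule.

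Of 70 other genes of the guidance pathways, taken from a list of cues, co-receptors and intracellular effectors, few met the injury rule. In microglia-like nuclei 2 of 58 were called higher (2.56% of all genes) and 1 lower (1.45%). DPYSL3, a collapsin response mediator, measured 1.36 to 2.31 in the intact segments and 10.3, 10.7, 12.8 and 10.1 after injury, and GIPC1, an adaptor that binds semaphorin and neuropilin tails, measured 6.79 to 9.29 in the intact segments and 15.5, 17.1, 15.7 and 20.1 after injury. CNTN1, a neuronal adhesion molecule, was lower (40.3 to 49.5 in the intact segments and 9.49, 24.7, 7.50 and 19.5 after injury). In OPC-like nuclei 1 of 58 was called (0.355%), NGEF, with 2.27 to 4.35 in the intact segments and 36.6, 9.23, 14.8 and 10.3 after injury. NGEF passed the filter only through the injured libraries too, with 3.03 expected UMIs from its intact level. None was called among 64 in oligodendrocyte-like, 55 in astrocyte-like or 69 in neuron-like nuclei. By the enrichment rule 4 of 61 led in oligodendrocyte-like nuclei (2.97% of all genes), 2 in OPC-like (1.39%), 5 in astrocyte-like (2.95%), 1 in neuron-like (3.73%) and 5 in microglia-like nuclei (6.95%).

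All 70 members had at least 18 UMIs over the kept nuclei, and 64 had enough counts to be judged in at least 1 class. The 6 that were judged in none were EPHA1, NTN3, ROBO4, SEMA3G, SEMA6B and UNC5CL. UNC50, which is not a guidance receptor, measured 17.5 to 27.7 in oligodendrocyte-like, 15.5 to 19.8 in neuron-like and 13.5 to 22.5 in microglia-like nuclei.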

How the data were processed

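Single-nucleus RNA was captured with the droplet chemistry of 10x Genomics in 7 libraries. The authors deposited UMI counts per gene and barcode, not normalized, which were made with Cell Ranger 6.0.0 against Mmul_10 per the labels and the study's methods; the annotation release, and whether introns and strand were used in counting, are not given in the sources used here. From these deposited counts, nuclei with at least 500 genes and 1000 UMIs, at most 10% mitochondrial and 5% hemoglobin UMIs were kept, and the 5% with the highest simulated-doublet score were removed per library. Nuclei of all libraries were clustered together, without integration to correct for differences between libraries, and named from marker genes. The clustering used 2000 variable genes that held no member, 30 components, 20 neighbours and resolution 1 (scanpy 1.11.5, leidenalg 0.10.2). The rule for leaving a cluster unnamed was set after the clusters had been seen. Library totals were 45079131 to 150987900 UMIs.

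UMIs were summed per class and library and divided by the class total. The call rules were run over all genes with enough counts and the share called is given as background; with 1 library per group no test was made. The script was tested on simulated data. The members, gene lists and rules were chosen with earlier results of these data known. The genes named were those called after injury or enriched in a class, the fixed ligand and receptor pairs, and the other members that a sentence needed, the last chosen after their values had been seen. Alternatives were other weightings, scalings, references, thresholds, doublet and purity settings, and, added after the data had been seen, leaving out single injured libraries or neuron-like sub-clusters led by glial genes.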

Additional observations from a re-analysis of the deposited data

Results flagged for a closer look

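A few members lay above the intact range in all 4 injured libraries of one class and below it in all 4 of another, and none of these differences was tested. EPHB2 was above in OPC-like nuclei (log2 of the mean ratio 0.89) and below in microglia-like nuclei (-2.89), a difference of 3.78. The part of carried-over neuronal RNA in the OPC-like EPHB2 levels was not tested. EPHB2 was also below in neuron-like nuclei (-0.32), a difference of 1.20 from OPC-like nuclei. The neuron-like level at 7 dpi (98.9 CPM, interval 95.8 to 102) was below that of intact cervical cord (99.0, interval 96.3 to 102) by less than the counting error. NRP1 was above in microglia-like (1.60) and below in neuron-like nuclei (-0.42), a difference of 2.02. The microglia-like level of NRP1 was 5.27, 5.06 and 6.24 CPM in the intact segments and 22.4, 25.7, 9.56 and 9.37 after injury. At 30 dpi and 6 mpi it was 5.03 and 4.21% of the neuron-like level, beside a highest neuron marker at 6.41 and 9.06%. SEMA3C was above in microglia-like (1.45) and below in astrocyte-like nuclei (-1.02), a difference of 2.48. The microglia-like level of SEMA3C was low (in CPM, 2.36, 1.86 and 1.49 in the intact segments and 3.01, 2.66, 12.4 and 2.76 after injury), and without the 30 dpi library, left out after seeing the data, its log2 value was 0.56 in place of 1.45.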

How the results depend on the processing

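No paired analysis was possible because each group was 1 library and no result came from a test. No result changed direction under the alternatives run. Shares of all genes are given for the main rules and at 1.5-fold only. Counts under the other alternatives therefore say nothing about the members as a set. With the mean of the intact libraries as reference, the members called higher were 1 in oligodendrocyte-like (NTN4), 0 in OPC-like, 1 in astrocyte-like (NRP2) and 1 in microglia-like nuclei (PLXND1). At 1.5-fold they were 4, 2, 1 and 5 in the same order, and 2 members were called lower in microglia-like nuclei (EPHB2 and PLXNA4). The OPC-like count at 1.5-fold included SEMA5B, which passed the filter only through the injured libraries. With each nucleus weighted equally, 0 members were called higher in OPC-like and 0 in microglia-like nuclei, 2 were called lower in microglia-like nuclei and 1 was enriched in OPC-like nuclei (SEMA3D). Without doublet removal, 0 were called higher in OPC-like and 2 lower in microglia-like nuclei, DCC was no longer enriched, and 11 differed between intact segments in microglia-like nuclei. At 30 expected UMIs, added after seeing the data, 1 of 34 judged members differed between segments in oligodendrocyte-like and 10 of 29 in microglia-like nuclei. The OPC-like count was also 0 with median-of-ratios scaling, with members among the variable genes and with 30 expected UMIs. In the purest nuclei 2 were called higher in astrocyte-like nuclei (NRP2 and UNC5C) and 3 differed between segments there, while PLXNC1 was not called in microglia-like nuclei. Each injured library was also left out, chosen after seeing the data, which makes the rule easier to meet for every gene. Without 6 mpi, 1 was called higher in oligodendrocyte-like (EPHA3) and 2 in astrocyte-like nuclei (NRP2 and PLXNC1). Without 7 dpi, 2 were called lower in microglia-like nuclei (EPHB2 and ROBO3). Without 14 dpi, 2 were called lower there (EPHB2 and PLXNA4) and 2 higher in oligodendrocyte-like nuclei (NRP2 and NTN4). Without 30 dpi, 1 was called higher in oligodendrocyte-like (PLXNB2) and 1 lower in astrocyte-like nuclei (SEMA3C). The causes were not tested. The few nuclei of the OPC- and astrocyte-like classes (221 and 121 at 6 mpi, beside 2328 microglia-like) limit their summed counts, and 39 of 70 members could not be judged there.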
